A study of Mus musculus with 8 samples.

Results

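The genes described are 10 dual-specificity phosphatases that act on mitogen-activated protein (MAP) kinases: Dusp1, Dusp2, Dusp4, Dusp5, Dusp6, Dusp7, Dusp8, Dusp10, Dusp14 and Dusp16. They were taken by symbol from a count table of 24907 symbols, all 10 were found, and all 10 were among the 12538 genes tested. Their RNA was measured in ASZ001 cells, a line of mouse basal cell carcinoma, in 4 groups of 2 libraries each. Knockdown RasV12 cells carried an shRNA to Tgfbr1, which encodes a TGF-beta receptor kinase, and were given Dox (doxycycline) with 4OHT (4-hydroxytamoxifen). NS RasV12 cells carried a non-silencing (NS) shRNA and received the same 2 agents. Knockdown DMSO cells carried the Tgfbr1 shRNA and NS DMSO cells the non-silencing shRNA, and both received the solvent DMSO. RasV12, an activated form of Ras, is named in the labels of the libraries with Dox and 4OHT only. No group received these agents without RasV12, so an effect of the drugs and one of Ras cannot be told apart, and "Ras response" stands for the change of both. All groups come from 1 cell line, the labels name a single Tgfbr1 shRNA, and neither dose nor duration is stated in the sources used here. Whether replicate libraries stem from 1 culture or 2 is not stated either, and p-values thus rest on a spread between libraries that may be technical.

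MAP kinases are switched on when an upstream kinase phosphorylates a threonine and a tyrosine in their activation loop. Dual-specificity phosphatases remove both phosphates, and several of their genes are themselves induced by the kinase cascade, which makes them negative feedback regulators. The classical members differ in place and target: some reside in the nucleus and are induced early, others stay in the cytoplasm and prefer ERK, and others again prefer the stress kinases JNK and p38. In keratinocytes the ERK branch is a main route by which Ras and the EGF receptor act.

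Library totals lay between 12724604.5 and 16233379 counts. Tgfbr1 was at 8.08 to 10.2 CPM (counts scaled to a common library size) in the 4 knockdown libraries, against 77.1 to 104 CPM in the 4 NS libraries, so each library matched its shRNA label. Between the NS RasV12 and NS DMSO libraries Tgfbr1 itself differed by a log2 change of 0.32 ± 0.06 (adjusted p of 0.000141). Rn45s, which encodes ribosomal RNA, held a share of 2.49% and 2.57% in the knockdown RasV12 libraries, 0.916% and 2.76% in NS RasV12, 0.387% and 1.36% in knockdown DMSO and 0.816% and 0.549% in NS DMSO, and removing it changed no call of a phosphatase. The 8 markers of keratinocytes and basal cell carcinoma were all detected in every group. Their summed level was 9970 to 10500 CPM in knockdown RasV12, 10400 to 10700 in NS RasV12, 14000 to 14800 in knockdown DMSO and 22700 to 23100 CPM in NS DMSO cells, most of it Krt5 and Krt14. In knockdown RasV12 against NS DMSO cells 4 of the 8 were higher (Epcam, Ptch1, Cdh1 and Trp63) and 4 lower (Krt5, Krt14, Krt15 and Gli1). Of the other cell types, 5 fibroblast markers summed to at most 4.39 CPM in any library, with Lum at 0 throughout. The 4 leukocyte markers summed to 15.0 to 15.5 CPM in knockdown RasV12, 7.43 to 7.87 in NS RasV12, 4.51 to 4.88 in knockdown DMSO and 7.68 to 9.02 CPM in NS DMSO cells, nearly all of it Cd68, with Cd3e at 0. The 3 endothelial markers summed to 22.5 to 37.1 CPM, nearly all of it Pecam1, while Cdh5 and Kdr had at most 1.5 counts each over all libraries. The 3 melanocyte markers summed to 3.37 to 6.22 CPM, nearly all of it Pmel, with Dct at 0. The part of these markers in the results was not tested. In such bulk samples fewer cells of a type and less RNA per cell cannot be told apart.

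Promoter windows of 250 bases before the start of transcription were found in RefSeq (build GRCm38.p6) for 9 of the 10 genes, all but Dusp4. Those of Dusp8 and Dusp10 are shown because these genes had the most similar profiles of the 10, that of Dusp6 because it led per kilobase in both RasV12 groups, and those of Dusp1 and Dusp5 because they held a motif searched for. They lie at chr7:142095285-142095534, minus strand, chr1:184034131-184034380, plus strand, chr10:99262981-99263230, plus strand, chr17:26508473-26508722, minus strand and chr19:53528895-53529144, plus strand. Capitals mark matches, on either strand, to the cyclic AMP response element TGACGTCA, the AP-1 site TGANTCA, the ETS site CCGGAAG or the CArG box of serum response factor.
Dusp8: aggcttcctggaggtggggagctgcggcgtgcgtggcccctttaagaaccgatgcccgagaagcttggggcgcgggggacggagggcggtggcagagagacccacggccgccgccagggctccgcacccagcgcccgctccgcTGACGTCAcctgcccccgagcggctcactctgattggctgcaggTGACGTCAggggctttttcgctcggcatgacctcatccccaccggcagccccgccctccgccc
Dusp10: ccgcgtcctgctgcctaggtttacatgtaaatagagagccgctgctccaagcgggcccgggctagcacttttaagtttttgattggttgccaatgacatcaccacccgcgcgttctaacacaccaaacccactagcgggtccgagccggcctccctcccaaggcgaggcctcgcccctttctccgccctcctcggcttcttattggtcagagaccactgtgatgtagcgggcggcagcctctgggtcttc
Dusp6: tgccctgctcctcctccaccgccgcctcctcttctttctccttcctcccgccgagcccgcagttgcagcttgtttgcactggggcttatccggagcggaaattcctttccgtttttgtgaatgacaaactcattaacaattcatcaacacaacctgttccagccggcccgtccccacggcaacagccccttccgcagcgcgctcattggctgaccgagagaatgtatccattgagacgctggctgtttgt
Dusp1: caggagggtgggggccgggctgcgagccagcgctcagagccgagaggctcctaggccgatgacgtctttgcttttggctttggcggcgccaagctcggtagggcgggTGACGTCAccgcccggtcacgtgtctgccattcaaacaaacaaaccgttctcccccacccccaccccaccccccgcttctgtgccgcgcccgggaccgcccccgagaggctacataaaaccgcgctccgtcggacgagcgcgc
Dusp5: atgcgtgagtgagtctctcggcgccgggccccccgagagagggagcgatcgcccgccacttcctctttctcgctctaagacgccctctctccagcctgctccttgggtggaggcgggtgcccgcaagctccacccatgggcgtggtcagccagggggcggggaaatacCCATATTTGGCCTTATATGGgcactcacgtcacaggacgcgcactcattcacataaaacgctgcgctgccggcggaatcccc
Dusp8 held the cyclic AMP response element at 2 places, beginning 107 and 63 bases before the start, and Dusp1 at 1 place, 143 bases before it. Dusp5 held 2 adjoining CArG boxes, 82 and 72 bases before the start. No other match was found in the 9 windows, those of Dusp10 and Dusp6 included, and the matches did not overlap. Of 32536 windows of the same length, 1.56% held the cyclic AMP response element, 1.48% a CArG box, 6.73% the AP-1 site and 6.95% the ETS site. A match describes letters in the window and not binding.

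Most of the 10 genes changed in each of 4 comparisons, in both directions except with Ras in knockdown cells, where none fell. With Ras in NS cells 5 rose, 3 fell and 2 did not pass the test, where 20.8% of all genes tested rose, 21.3% fell and 42.1% passed in either direction. With Ras in knockdown cells 7 rose, none fell and 3 did not pass, where 19.5% of all genes rose, 16.6% fell and 36.1% passed. Of the genes that passed there 54.0% were higher, and 43.9% were when libraries were scaled by their totals alone. With the knockdown under DMSO 5 rose, 4 fell and 1 did not pass, against 30.9%, 31% and 61.9% over all genes. With the knockdown under Ras 7 rose, 1 fell and 2 did not pass, against 30.5%, 29.7% and 60.2% over all genes. Passing means an adjusted p under 0.05 in edgeR's quasi-likelihood test, adjusted by Benjamini-Hochberg over all 12538 genes. The median absolute log2 change of the 10 genes was 0.46 in NS cells and 0.39 in knockdown cells with Ras, against 0.18 and 0.16 over all genes. With the knockdown it was 0.62 under DMSO and 0.57 under Ras, against 0.28 and 0.27. With the DESeq2 test 5 genes in place of 8 passed for Ras in NS cells, 4 higher and 1 lower. The 4 comparisons share libraries in pairs and are not independent of each other. The 10 genes were chosen with earlier results of these data known, so the shares and medians describe them and do not test them.

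**Figure D1:**
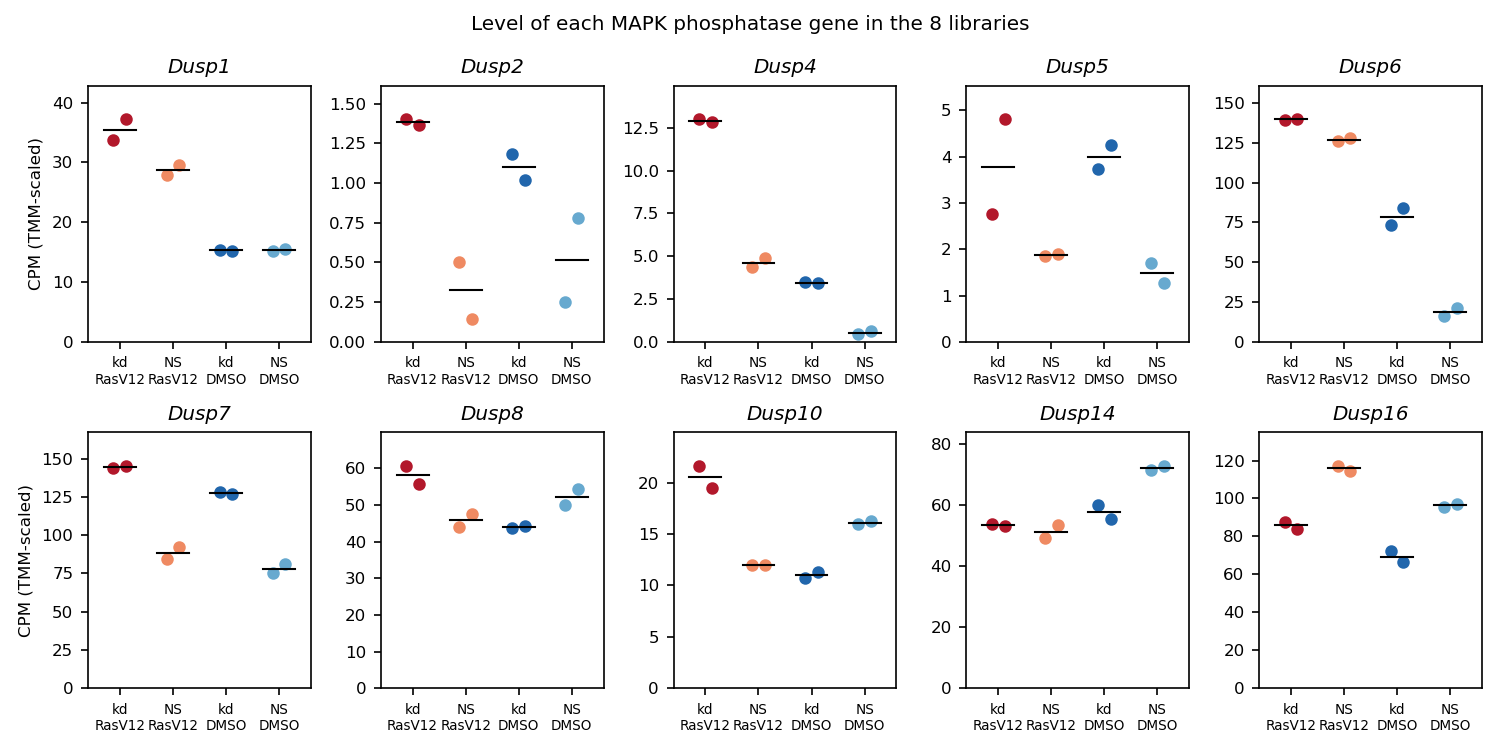
Level of each gene in CPM (linear axis from 0, scaled by TMM factors) in the 8 libraries, by group, where points are libraries and lines are means of 2 libraries (kd, Tgfbr1 knockdown). Dusp6 and Dusp4 are lowest in both NS DMSO libraries, and Dusp10 is highest in both knockdown RasV12 libraries.

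The ERK phosphatase gene Dusp6, whose protein stays in the cytoplasm and prefers ERK, was lowest in NS DMSO cells and higher in the other 3 groups. It was at 139.7 and 139.8 CPM in the knockdown RasV12 libraries, 126 and 128 in NS RasV12, 73.3 and 83.9 in knockdown DMSO and 16.1 and 21.3 CPM in NS DMSO. The 4 groups do not overlap. Dusp6 rose with Ras by 2.77 ± 0.09 (log2 change ± SE) in NS cells (adjusted p of 3.24e-11) and by 0.83 ± 0.07 in knockdown cells (adjusted p of 1.14e-06). It rose with the knockdown by 2.08 ± 0.10 under DMSO (adjusted p = 4.89e-10), a 4.23-fold difference in cells not given Dox and 4OHT. Under Ras the knockdown difference of Dusp6 was 0.14 ± 0.07 (95% interval -0.01 to 0.28) with an adjusted p of 0.1. That difference passed in 7 alternatives, with log2 changes near the same value: when genes were not filtered (adjusted p = 0.00725), with the libraries compared alone (0.0113), with the replicate number as a block (0.0393), and without each of the 4 DMSO libraries in turn (0.0219 to 0.039), which lie outside this comparison. In RefSeq the long non-coding RNA gene Gm34921 shares part of the span of Dusp6. Overlap of their exons was not examined, and no source used here gives the strand setting of the counting. Reads of the pair may therefore not be told apart.

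Dusp7, a relative of Dusp6 with the same place and target, rose in all 4 comparisons. It was at 144 and 145 CPM in knockdown RasV12, 84.4 and 92.5 in NS RasV12, 128 and 127 in knockdown DMSO and 75.0 and 81.3 CPM in NS DMSO libraries. All 4 knockdown libraries were above all 4 NS libraries. The knockdown raised Dusp7 by 0.71 ± 0.05 under DMSO (adjusted p = 1.17e-12) and by 0.71 ± 0.05 under Ras (adjusted p = 9.09e-13). Its Ras response was 0.18 ± 0.05 in NS cells (adjusted p of 0.00576) and 0.18 ± 0.05 in knockdown cells (adjusted p of 0.00257). The call in NS cells ended without NS DMSO replicate 1 (change 0.13, adjusted p of 0.141), without NS RasV12 replicate 2 (0.12, adjusted p = 0.146) and with DESeq2 (adjusted p = 0.0733).

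Dusp4, a nuclear and inducible phosphatase of ERK, JNK and p38, rose in all 4 comparisons. It was at 13.0 and 12.8 CPM in knockdown RasV12, 4.36 and 4.87 in NS RasV12, 3.48 and 3.44 in knockdown DMSO and 0.466 and 0.604 CPM in NS DMSO libraries. The groups do not overlap, and the NS DMSO libraries held 16 counts together. Dusp4 passed the filter on low counts through 6 libraries, those outside NS DMSO. It rose under Ras by 3.09 ± 0.29 in NS cells (adjusted p of 9.11e-10) and by 1.89 ± 0.15 in knockdown cells (adjusted p of 1.23e-10). With the knockdown it rose by 2.69 ± 0.30 under DMSO (adjusted p = 1.46e-08) and by 1.49 ± 0.14 under Ras (adjusted p = 8.49e-10).

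Dusp1, an early-response gene whose protein acts on p38, JNK and ERK, was higher with Ras. It was at 33.8 and 37.2 CPM in knockdown RasV12, 27.9 and 29.5 in NS RasV12, 15.4 and 15.2 in knockdown DMSO and 15.1 and 15.6 CPM in NS DMSO libraries. The 2 DMSO groups overlap, and both RasV12 groups lie above them. Dusp1 rose under Ras by 0.90 ± 0.09 in NS cells (adjusted p of 3.09e-09) and by 1.21 ± 0.09 where the knockdown was present (adjusted p = 1.29e-11). The knockdown difference was -0.01 ± 0.10 under DMSO (95% interval -0.21 to 0.20, adjusted p = 0.967) and a rise of 0.30 ± 0.08 under Ras (adjusted p = 0.00148).

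Dusp5, a nuclear phosphatase of ERK alone, was expressed at a low level and was higher with the knockdown. It was at 2.77 and 4.81 CPM in knockdown RasV12, 1.85 and 1.90 in NS RasV12, 3.74 and 4.25 in knockdown DMSO and 1.71 and 1.28 CPM in NS DMSO libraries. Every knockdown library was above every NS library, and the 2 knockdown RasV12 libraries lie further apart than those of the other groups. The knockdown raised it by 1.38 ± 0.28 under DMSO (adjusted p = 0.000111) and by 0.98 ± 0.28 under Ras (adjusted p = 0.00341). Without knockdown RasV12 replicate 2 the change of Dusp5 under Ras was 0.54 and no longer passed (adjusted p = 0.148). Its Ras response was 0.30 ± 0.33 in NS cells (95% interval -0.38 to 0.98, adjusted p = 0.497) and -0.10 ± 0.23 in knockdown cells (-0.58 to 0.38, adjusted p = 0.765).

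Dusp2, another nuclear and inducible member known from lymphocytes, was near the limit of detection. It had 21.5 and 17.5 counts in knockdown RasV12, 6.5 and 2 in NS RasV12, 15.5 and 14.5 in knockdown DMSO and 4 and 11 counts in NS DMSO libraries, or 0.146 to 1.40 CPM. The knockdown libraries lie above the NS libraries of either treatment. It passed the filter on low counts through 5 libraries, 4 of them from knockdown cells. The knockdown raised Dusp2 by 2.21 ± 0.53 under Ras (adjusted p = 0.000716) and by 1.13 ± 0.49 under DMSO (adjusted p = 0.0449). The call under DMSO ended with DESeq2 (adjusted p = 0.249), with the replicate number as a block (0.0504), without either knockdown RasV12 library (0.0566 and 0.0553), which lie outside that comparison, without knockdown DMSO replicate 1 (0.177) or 2 (0.0707), and without NS DMSO replicate 1 (change 0.50, adjusted p of 0.446). Without NS DMSO replicate 2 the change was 2.11. The Ras response of Dusp2 was -0.71 ± 0.68 in NS cells (95% interval -2.12 to 0.66) and 0.37 ± 0.39 in knockdown cells (-0.43 to 1.17), with adjusted p of 0.414 and 0.492.

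Dusp8, Dusp10 and Dusp16 encode phosphatases that prefer JNK and p38. Dusp10 was at 21.6 and 19.5 CPM in knockdown RasV12, 11.97 and 12.01 in NS RasV12, 10.8 and 11.3 in knockdown DMSO and 16.0 and 16.2 CPM in NS DMSO libraries. It was thus lower in cells with Ras or the knockdown alone than in NS DMSO cells, and highest in cells with both. Dusp10 fell with Ras in NS cells, with a log2 change of -0.42 ± 0.11 (adjusted p = 0.00213, and 0.0596 with DESeq2), and rose in knockdown cells by 0.90 ± 0.10 (adjusted p = 9.1e-08). With the knockdown it fell under DMSO, with -0.54 ± 0.11 (adjusted p = 9.89e-05), and rose under Ras by 0.78 ± 0.10 (adjusted p = 2.16e-07).

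Dusp8 had the same order of groups at smaller differences, with 60.7 and 55.6 CPM in knockdown RasV12, 44.0 and 47.5 in NS RasV12, 43.6 and 44.2 in knockdown DMSO and 50.1 and 54.4 CPM in NS DMSO libraries. The groups with Ras or the knockdown alone overlap, and lie below the other 2. Dusp8 moved under Ras by -0.19 ± 0.065 in NS cells (adjusted p of 0.0208) and by 0.41 ± 0.06 in knockdown cells (adjusted p of 1.25e-05). The fall in NS cells no longer passed without NS DMSO replicate 2 (change -0.13, adjusted p of 0.209), without NS RasV12 replicate 1 (-0.13, adjusted p = 0.201) or with DESeq2 (adjusted p = 0.173). With the knockdown it changed by -0.25 ± 0.07 under DMSO (adjusted p = 0.0017) and by 0.35 ± 0.06 under Ras (adjusted p = 3.8e-05). The long non-coding RNA gene Gm32786 shares part of its span in RefSeq, with the same doubt over exons and strand as for Dusp6.

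Dusp16 was highest with Ras alone. It was at 87.6 and 84.1 CPM in knockdown RasV12, 117 and 115 in NS RasV12, 72.2 and 66.3 in knockdown DMSO and 95.4 and 97.3 CPM in NS DMSO libraries. No groups overlap, and the knockdown libraries are the lower ones under either treatment. The knockdown lowered Dusp16 under DMSO, with a log2 change of -0.48 ± 0.05 (adjusted p = 5.36e-09), and under Ras, with -0.43 ± 0.05 (adjusted p = 1.51e-08). Ras raised it by 0.27 ± 0.05 in NS cells (adjusted p of 4.58e-05) and by 0.31 ± 0.05 in knockdown cells (adjusted p of 2.58e-05). The long non-coding RNA genes Gm36328 and 1700055D16Rik share part of its span in RefSeq, with the same doubt over exons and strand.

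Dusp14, a small atypical member that lacks the kinase-binding domain of the others, was highest in NS DMSO cells. It was at 53.9 and 53.1 CPM in knockdown RasV12, 49.1 and 53.4 in NS RasV12, 59.9 and 55.3 in knockdown DMSO and 71.4 and 72.8 CPM in NS DMSO libraries. The 2 RasV12 groups overlap. Dusp14 fell with Ras in NS cells (-0.49 ± 0.06, adjusted p = 1.12e-07) and with the knockdown under DMSO (-0.32 ± 0.06, adjusted p = 1.99e-05). In cells that already had the other change the difference did not pass: it was -0.10 ± 0.06 with Ras in knockdown cells (95% interval -0.23 to 0.02, adjusted p = 0.187) and 0.06 ± 0.06 with the knockdown under Ras (-0.07 to 0.19, adjusted p = 0.41).

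**Figure D2:**
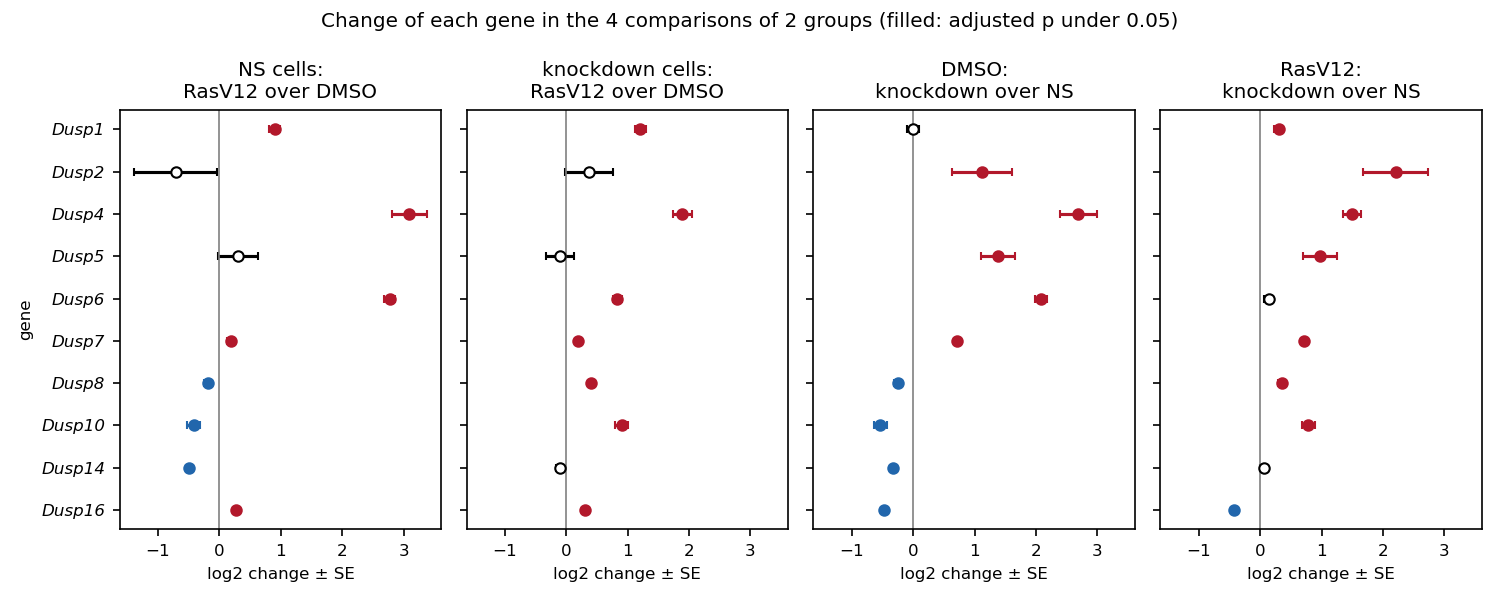
Log2 change of each gene with its standard error in the 4 comparisons between 2 groups of 2 libraries, where filled red points are higher and filled blue points lower at an adjusted p under 0.05, and open points did not pass. Dusp8 and Dusp10 are blue in NS cells and under DMSO, and red in knockdown cells and under RasV12.

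The interaction asks whether the Ras response differed between knockdown and NS cells. It passed for 5 of the 10 genes, 3 higher and 2 lower, where 38.2% of all genes tested passed, 20.2% higher and 18% lower. Of the genes that passed 52.8% were higher, and 40.9% were when libraries were scaled by their totals alone. The Ras response was smaller in knockdown than in NS cells for Dusp6 (difference -1.94 ± 0.12, adjusted p = 4.61e-08) and for Dusp4 (-1.20 ± 0.37, adjusted p = 0.0104). The Dusp4 difference no longer passed with DESeq2 (adjusted p = 0.0819) or without NS DMSO replicate 1 (-1.11, adjusted p = 0.0774). For Dusp10 and Dusp8 the responses had opposite signs, with differences of 1.32 ± 0.15 (adjusted p = 7.09e-08) and 0.60 ± 0.09 (adjusted p = 8.23e-06). For Dusp14 the fall seen in NS cells differed from the response of knockdown cells by 0.39 ± 0.08 (adjusted p = 0.000629). The difference for Dusp1 was 0.30 ± 0.13 (95% interval 0.05 to 0.56) with an adjusted p of 0.0578, and it passed with the replicate number as a block (0.0477) and without knockdown RasV12 replicate 1 (0.0351). For Dusp7 it was 0.00 ± 0.07 (-0.14 to 0.14) and for Dusp16 0.04 ± 0.07 (-0.10 to 0.19), both without passing. For the low-count genes Dusp2 and Dusp5 the intervals were wide, at -0.50 to 2.70 and -1.24 to 0.43.

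**Figure D3:**
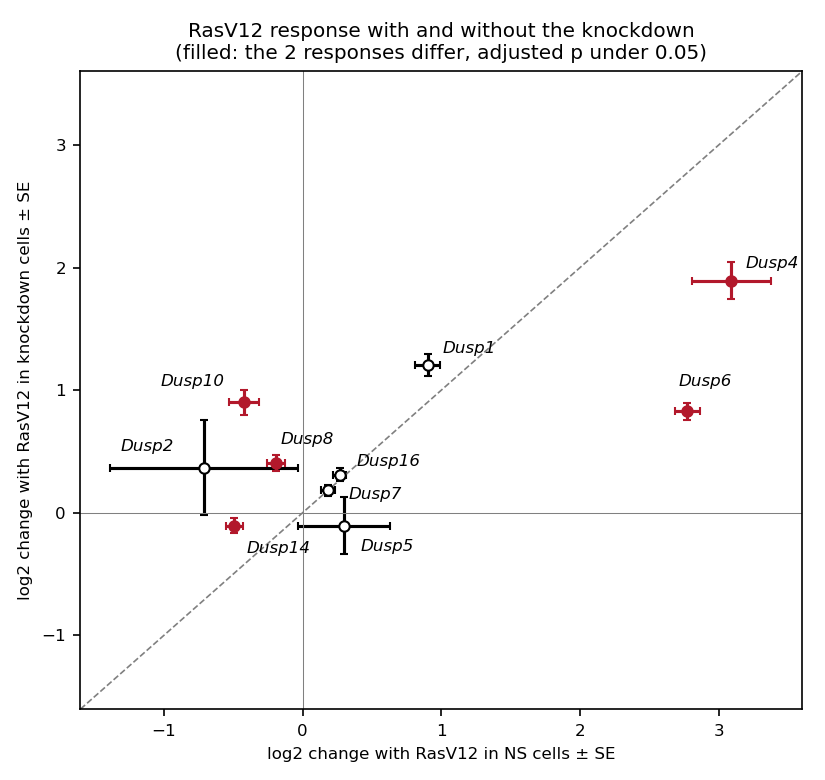
Ras response of each gene in knockdown cells (vertical axis) against that in NS cells (horizontal axis), both as log2 change ± standard error from the fit of 8 libraries, where the dashed line marks equal responses and filled points passed the test of the difference. Dusp6 and Dusp4 lie below the line, and Dusp10, Dusp8 and Dusp14 above it.

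The knockdown alone set against Ras alone compares the knockdown DMSO with the NS RasV12 libraries. Here 4 of the 10 genes were higher and 3 lower, where 27.5% of all genes were higher, 27.4% lower and 54.9% passed. Dusp2, Dusp5, Dusp7 and Dusp14 were higher with the knockdown alone, by 1.84 ± 0.57, 1.08 ± 0.27, 0.53 ± 0.05 and 0.17 ± 0.06. Dusp1 was lower (-0.91 ± 0.09), as were Dusp16 (-0.74 ± 0.05) and Dusp6 (-0.69 ± 0.07). The call of Dusp14 (adjusted p = 0.0238) ended without knockdown DMSO replicate 1 (0.169), without NS RasV12 replicate 1 (0.201) and with DESeq2 (0.154). That of Dusp2 (adjusted p = 0.00693) ended with DESeq2 (0.0682) and without NS RasV12 replicate 2 (change 1.24, adjusted p of 0.113), while without NS RasV12 replicate 1 the change was 2.84. The difference was -0.40 ± 0.19 for Dusp4 (95% interval -0.79 to -0.01, adjusted p = 0.0786), -0.06 ± 0.07 for Dusp8 (-0.20 to 0.08) and -0.12 ± 0.12 for Dusp10 (-0.36 to 0.12), none of which passed.

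Cells with both changes set against NS DMSO cells had all 10 genes past the test, 8 higher and 2 lower, where 32.1% of all genes were higher, 32.8% lower and 64.9% passed. Dusp4 was higher by 4.58 ± 0.22, a 24.0-fold difference, and Dusp6 by 2.91 ± 0.09. Dusp2, Dusp5, Dusp1 and Dusp7 were higher by 1.496 ± 0.457, 1.28 ± 0.28, 1.20 ± 0.08 and 0.89 ± 0.05. Dusp10 was higher by 0.36 ± 0.09 and Dusp8 by 0.16 ± 0.06, and Dusp14 (-0.43 ± 0.06) and Dusp16 (-0.17 ± 0.05) were lower. With DESeq2 6 of the 10 passed, and Dusp2 (adjusted p = 0.0975), Dusp8 (0.169), Dusp10 (0.0547) and Dusp16 (0.0822) did not. Single libraries decided 3 of these calls: Dusp8 did not pass without NS DMSO replicate 1 (adjusted p = 0.245) or knockdown RasV12 replicate 1 (0.306), Dusp16 without knockdown RasV12 replicate 2 (0.0561), and Dusp2 without NS DMSO replicate 1 (change 0.86, adjusted p of 0.146). The change of Dusp2 was 2.47 without NS DMSO replicate 2, and that of Dusp5 was 0.84 without knockdown RasV12 replicate 2.

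Levels of different genes were compared as CPM per kilobase of the deposited length. In NS DMSO cells Dusp14 led with 50.2 ± 0.69 CPM per kilobase (mean ± SD, n = 2), before Dusp7 at 24.4 ± 1.39 and Dusp16 at 18.9 ± 0.26. Dusp8 (10.9), Dusp1 (7.94), Dusp6 (6.70), Dusp10 (5.78) and Dusp5 (1.30) followed, and Dusp2 (0.320) and Dusp4 (0.221) were last, with values per kilobase that do not differ beyond their SD. In knockdown RasV12 cells Dusp6 led with 50.05 ± 0.02 CPM per kilobase, before Dusp7 at 45.1 ± 0.24, Dusp14 at 37.2 ± 0.43 and Dusp1 at 18.3 ± 1.25. Dusp6 thus held rank 1 of 10 there and rank 6 in NS DMSO cells, and Dusp4 rank 8 and rank 10.

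**Figure D4:**
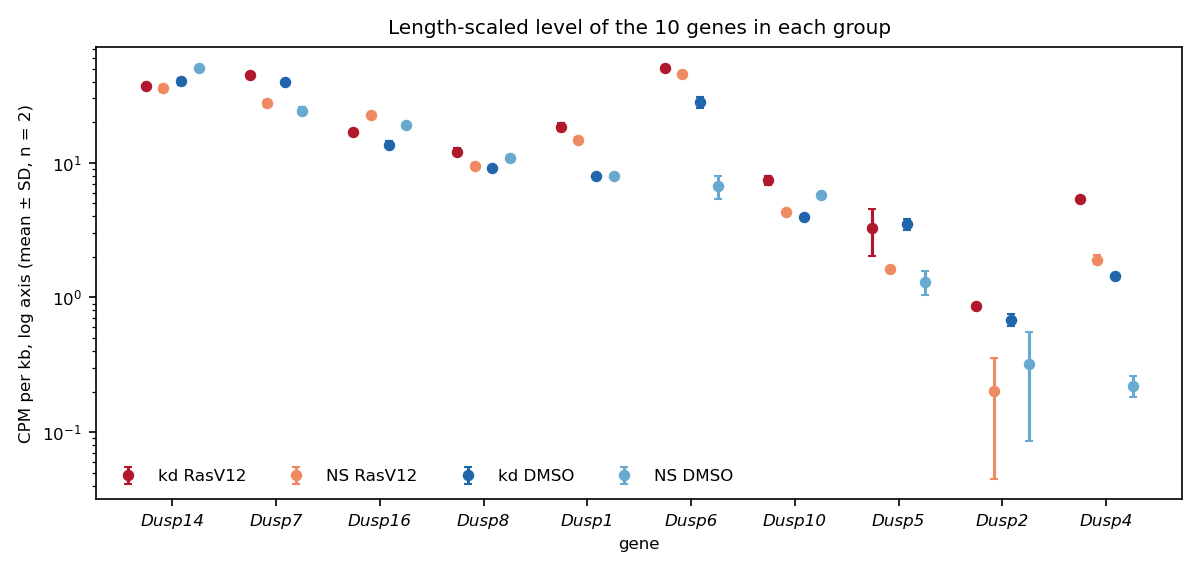
Level per kilobase of the deposited length (CPM per kb, log axis) of each gene in the 4 groups, as mean ± SD of 2 libraries, with genes in the order of their level in NS DMSO cells (kd, Tgfbr1 knockdown). Dusp6 is sixth from the left and above all others in both RasV12 groups.

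Across the 8 libraries the closest profiles among the 45 pairs of these genes were those of Dusp8 and Dusp10 (Pearson r of log2 CPM = 0.97) and of Dusp4 and Dusp6 (0.937), and the most opposed that of Dusp6 and Dusp14 (-0.961). These values describe 4 groups of 2 libraries that share their depth and scaling, and genes can correlate at very different sizes of change. Of 9939 other genes with a mean of at least 5 CPM, the profile of Dusp6 was most like those of Lgals1, Picalm and Palld (r = 0.996, 0.995 and 0.994). Lgals1, which encodes the lectin galectin-1, was at 237 CPM in knockdown RasV12, 204 in NS RasV12, 149.9 in knockdown DMSO and 56.7 CPM in NS DMSO cells. Dusp4 was most like Rrbp1, Olfml2b and Sdc4 (0.998, 0.996 and 0.995), of which Olfml2b was also close in level, with 11.9, 4.56, 3.20 and 0.817 CPM in the same order of groups. Genes like Dusp1 included Neurl1b and Fchsd1 (0.995 and 0.99), and the nearest were for Dusp5 Pdzd4, Adi1 and Xpnpep3 (0.984, 0.979 and 0.976), and for Dusp2 Foxn3, Dym and Tmem41b (0.971, 0.966 and 0.96).

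The genes around the phosphatases were taken from lists of the pathway, beginning with those that ERK induces. Of the 13 tested genes on that list, Ras in NS cells raised 12 and lowered 1, and Ras in knockdown cells raised 11 and lowered 1. The knockdown raised 11 and lowered 1 under DMSO, and raised 9 and lowered none under Ras. Their median log2 changes were 0.96, 0.70, 1.18 and 0.31, against -0.01 to 0.00 over all genes tested. In the same order 42.1%, 36.1%, 61.9% and 60.2% of all genes passed. The list was chosen with earlier results of these data known, so these differences describe it and do not test it. The interaction was lower for 10 of the 13 and higher for 2, where 18% of all genes tested were lower and 20.2% higher. Etv4 and Etv5, ETS factor genes, had differences between the Ras responses of -2.71 ± 0.09 and -2.99 ± 0.15, of the same sign as Dusp6 and Dusp4. Ier3, an immediate early gene, had one of the opposite sign (1.23 ± 0.08) and reached 306 and 317 CPM in knockdown RasV12 libraries, against 56.5 and 60.9 CPM in NS RasV12.

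Among the 9 tested MAP kinase genes, the substrates of these phosphatases, 1 rose with Ras in NS cells and 3 in knockdown cells, and none fell. The call in NS cells was near the threshold (adjusted p = 0.048 by edgeR). Of those in knockdown cells, that of Mapk12 (change 0.51) ended with DESeq2 (adjusted p = 0.0832). Without knockdown DMSO replicate 2 the Mapk12 change was 0.37 and no longer passed. With the knockdown 5 rose and 1 fell under DMSO, and 5 rose and 2 fell under Ras. Over all genes tested 42.1% and 36.1% passed with Ras in NS and knockdown cells. With the knockdown 61.9% passed under DMSO and 60.2% under Ras. The p38 genes Mapk13, Mapk12 and Mapk14 had the smallest adjusted p. Mapk13, which encodes p38 delta, was at 16.5 and 15.3 CPM in knockdown RasV12, 2.93 and 2.71 in NS RasV12, 9.81 and 7.31 in knockdown DMSO and 2.67 and 2.84 CPM in NS DMSO libraries. The knockdown raised it by 1.62 ± 0.18 under DMSO and 2.50 ± 0.16 under Ras (adjusted p = 1.51e-08 and 3.79e-13), Mapk12 by 0.94 ± 0.15 and 1.73 ± 0.15, and Mapk14 by 0.37 ± 0.04 and 0.35 ± 0.04. Of the 10 upstream RAF and MAP2K genes 1 rose and none fell with Ras in either cell type. With the knockdown 3 rose and 3 fell under DMSO, and 2 rose and 1 fell under Ras, beside the same shares of all genes. The ERK kinase gene Map2k2 rose (0.33 ± 0.04 and 0.40 ± 0.04) and the JNK kinase gene Map2k7 fell (-0.53 ± 0.05 and -0.48 ± 0.05). Map2k1 rose with Ras in knockdown cells by 0.44 ± 0.05 (adjusted p = 1.79e-07).

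Further dual-specificity phosphatases outside the 10 were tested in 10 of 16 cases. With Ras 2 rose and none fell in NS cells, and likewise in knockdown cells. The call of Dusp18 in knockdown cells (change 0.25) ended with DESeq2 (adjusted p = 0.0529). Without knockdown DMSO replicate 2 that change was 0.20 and no longer passed. With the knockdown 5 rose and 1 fell under DMSO, and 4 rose and 2 fell under Ras. The shares of all genes tested that passed were 42.1% and 36.1% with Ras in NS and knockdown cells. They were 61.9% and 60.2% with the knockdown under DMSO and Ras. Dusp22, an atypical member, was at 35.9 and 35.4 CPM in knockdown RasV12 and 32.9 and 34.5 in knockdown DMSO libraries, against 16.8 and 16.7 in NS RasV12 and 17.5 and 18.0 CPM in NS DMSO. Its knockdown changes were 0.92 ± 0.08 under DMSO and 1.09 ± 0.08 under Ras (adjusted p = 9.02e-11 and 5.04e-12). Dusp3 rose in all 4 comparisons, by 0.46 ± 0.07 and 0.54 ± 0.06 with Ras in NS and knockdown cells and by 0.56 ± 0.07 and 0.64 ± 0.06 with the knockdown under DMSO and Ras. Dusp18 rose with the knockdown by 0.34 ± 0.07 and 0.74 ± 0.07. Of the tyrosine and serine-threonine phosphatases of MAP kinases 5 of 8 were tested. In these, 2 rose with Ras in NS cells and none changed in knockdown cells. With the knockdown 1 rose and 1 fell under DMSO and 1 rose and 2 fell under Ras, beside the same shares of all genes. Ppp2cb, a catalytic subunit gene of phosphatase 2A, rose by 0.27 ± 0.04 with Ras in NS cells, and Ppp2ca, the other, by 0.12 ± 0.03, a call that ended without NS DMSO replicate 2 (adjusted p = 0.055) or NS RasV12 replicate 2 (0.0518). Ppm1b fell with the knockdown under DMSO (-0.35 ± 0.06) and under Ras (-0.29 ± 0.06).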

How the data were processed

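The deposited values are estimated counts in multiples of 0.5, 1 entry a gene, left unscaled by the authors. Per the submitters' processing notes, TopHat, HOMER and DESeq2 were used with the mouse build mm9. Reads were analysed at the level of transcript isoforms, per the labels' design text. Tool versions, the strand setting and how reads matching more than 1 gene were handled are not given here. Of 24909 entries, 2 second copies of a symbol were dropped. For testing, the estimated counts were rounded to whole ones. The test was the robust quasi-likelihood F-test of edgeR 4.0.16 (R 4.3.3) with TMM scaling. It used the 12538 genes that filterByExpr kept (about 10 counts at the median library size, in 2 libraries). The fit was to the 4 group means of all 8 libraries with 4 residual degrees of freedom. Each gene's spread was moderated across genes, which added a median of 22.5 prior degrees of freedom. P-values and intervals rest on both. The 7 contrasts were two-sided and adjusted by Benjamini-Hochberg over all genes tested. The biological coefficient of variation was 3.37%. CPM use the unrounded counts and TMM factors. The deposited length column, a quantity the authors gave in bases, served for levels per kilobase. Alternatives were DESeq2 1.42.0, other scalings, no filter, the libraries compared alone, the replicate number as a block, removal of Rn45s and omission of each library. The fits were tested on simulated data. The 2 libraries differed beyond sampling noise in each of the 4 groups (chi-square per degree of freedom 2.35 to 13.3). This value was taken over the tested genes together, Rn45s included. It was highest in NS RasV12, where Rn45s held 0.916% and 2.76% of the counts, and the part of Rn45s in it was not tested. The 10 genes and the lists were chosen with earlier results of these data known. All 10 genes and Tgfbr1 are named, with up to 3 genes of each list that had the smallest adjusted p, and the 3 genes most like each member that changed at least 2-fold (log2 CPM with 0.5 added, predicted genes and small RNAs left out), except 1 gene that is not reported here. Intervals are 95% intervals of the fitted change.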

Additional observations from a re-analysis of the deposited data

Results flagged for a closer look

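The Ras response differed between knockdown and NS cells, by the interaction term of the edgeR fit, for 5 of the 10 phosphatases. It also differed for 8 of the pathway genes that were named for their adjusted p. Egr1, picked after its values were seen, differed as well and is given below. Of all genes tested 38.2% passed, a share against which the count of pathway genes cannot be set. Those genes were picked by their smallest adjusted p in the Ras or knockdown comparisons of the same libraries. The interaction is a difference between such comparisons, so the count describes these genes and does not test them. Values are the log2 change with Ras in knockdown cells minus that in NS cells, with their standard errors. Among the phosphatases they were -1.94 ± 0.12 for Dusp6, -1.20 ± 0.37 for Dusp4, 1.32 ± 0.15 for Dusp10, 0.60 ± 0.09 for Dusp8 and 0.39 ± 0.08 for Dusp14. Dusp8 and Dusp10 fell with Ras in NS cells and rose in knockdown cells. Neither fall passed with DESeq2 (adjusted p = 0.173 for Dusp8 and 0.0596 for Dusp10). Among the genes of the lists they were -2.99 ± 0.15 for Etv5, -2.71 ± 0.09 for Etv4, -0.21 ± 0.06 for Ppp2cb, 1.23 ± 0.08 for Ier3, 0.88 ± 0.27 for Mapk13, 0.79 ± 0.23 for Mapk12, 0.47 ± 0.08 for Map2k1 and 0.40 ± 0.10 for Dusp18. The differences of Dusp4 (adjusted p = 0.0819), Mapk13 (0.085), Mapk12 (0.0616) and Ppp2cb (0.0556) did not pass with DESeq2. The calls of Dusp4, Dusp18, Mapk13 and Mapk12 also ended when a single library was left out. Leaving out NS DMSO replicate 1 gave differences of -1.11 for Dusp4 and 0.26 for Dusp18. Leaving out knockdown DMSO replicate 2 gave 0.67 for Mapk13. The difference of Mapk12 was 0.60 when NS DMSO replicate 2 was dropped, and 0.55 when NS RasV12 replicate 1 was.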

How the results depend on the processing

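No change of direction occurred among the 10 genes in any called result. Of 1038 results of a gene under an alternative, 999 kept their side of the threshold, 30 no longer passed and 9 passed newly. With the DESeq2 test 5 of the 10 genes passed for Ras in NS cells, against 8 by edgeR, and 6 against 10 for both changes set against NS DMSO. Over all genes it called 3100 against 5281 for Ras in NS cells, 2476 against 4531 for Ras in knockdown cells and 2694 against 4791 for the interaction. Without single libraries the count of the 10 genes that passed was 7 to 8 for Ras in NS cells, 7 in each case for Ras in knockdown cells, 8 to 9 and 7 to 9 for the knockdown under DMSO and Ras, 4 to 6 for the interaction, 6 to 7 for the knockdown alone against Ras alone and 8 to 10 for both changes. A group left with 1 library was assumed to vary like the others. The labels give the groups the same replicate numbers but do not say that a number marks a shared culture or day. Deviations of same-numbered libraries had correlations of -0.0945 to 0.12 between groups over 10290 genes. With the replicate number as a block 8, 7, 8, 9, 6, 7 and 10 of the 10 genes passed in the 7 comparisons, against 8, 7, 9, 8, 5, 7 and 10 without it. The interaction uses all libraries, so it has no fit with the libraries compared alone. Dusp2, Dusp4 in NS DMSO cells and Dusp5 are limited by depth, with 2 to 61.5 counts in a library.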

Other observations

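The summed level of the 10 genes was 559 and 553 CPM in knockdown RasV12, 468 and 485 in NS RasV12, 412 and 412 in knockdown DMSO and 342 and 362 CPM in NS DMSO libraries. Of this, Dusp6 held a mean of 139.7, 127.1, 78.6 and 18.7 CPM in the same order of groups. The sum does not describe each gene: in knockdown RasV12 against NS DMSO cells 8 were higher, and Dusp14 and Dusp16 lower. Dusp9, a classical phosphatase of the same cytoplasmic ERK group as Dusp6 and Dusp7 that is outside the 10 genes, was picked after its values were seen. It was at 7.46 and 6.45 CPM in knockdown RasV12, 4.05 and 3.96 in NS RasV12, 7.60 and 8.01 in knockdown DMSO and 3.27 and 3.30 CPM in NS DMSO libraries. Dusp9 rose with the knockdown by 1.27 ± 0.17 under DMSO and 0.80 ± 0.17 under Ras (adjusted p = 2.94e-07 and 0.000194 by edgeR). Its Ras response did not pass in NS cells (0.29 ± 0.20, adjusted p = 0.245) or in knockdown cells (-0.17 ± 0.15, adjusted p = 0.392). Egr1, an early-response gene of the ERK-induced list that was picked in the same way, was at 18.6 ± 0.77 CPM in knockdown RasV12, 20.1 ± 1.27 in NS RasV12, 46.1 ± 3.76 in knockdown DMSO and 14.3 ± 0.34 CPM in NS DMSO cells (SD, n = 2). It fell with Ras in knockdown cells (-1.30 ± 0.08, adjusted p = 9.64e-13) and rose in NS cells by 0.49 ± 0.10 (adjusted p = 0.000222), a difference between the Ras responses of -1.80 ± 0.13 (adjusted p = 2.37e-11).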
